A study of Mus musculus with 5 samples.

Results

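The 10 genes described here control entry into mitosis: the kinase gene *Cdk1*, the cyclin genes *Ccna2*, *Ccnb1*, *Ccnb2* and *Ccnf*, the phosphatase genes *Cdc25a*, *Cdc25b* and *Cdc25c*, the polo-like kinase gene *Plk1*, and *Pkmyt1*, which encodes an inhibitory kinase. They were chosen by name for their place in this circuit, with earlier results of these arrays known. Of the 10 genes, 9 were measured among 19938 genes in all. *Ccnb1*, which encodes cyclin B1, was not analysed here, because no probe set carried its symbol in the annotation used.

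Expression was measured in 6DT1 cells, a highly metastatic mouse mammary carcinoma cell line, on 5 Affymetrix Mouse Gene 1.0 ST arrays, with 1 array per line. The *Arid4b* knockdown cohort (n = 2 lines) held lines H3 and H4, which carried different *Arid4b* shRNAs in the pLKO.1 lentiviral vector. The control cohort comprised 3 lines, H5, which carried a further *Arid4b* shRNA but kept normal ARID4B protein, the line with the scrambled shRNA in the same vector (scrambled line), and untransduced 6DT1 cells. The 4 transduced lines were pooled clones selected with 10 µg/ml puromycin, whereas the untransduced cells were not selected. The labels gave relative ARID4B protein by densitometry, scaled to the scrambled line, as 0.19 in H3 and 0.15 in H4, against 1.02 in line H5, 1.00 in the scrambled line and 1.09 in the untransduced line. On the log2 scale *Arid4b* mRNA measured 6.88 in H3 and 7.35 in H4, against 8.24 in line H5, 8.34 in the scrambled line and 8.36 in the untransduced line. Both hairpin lines of the knockdown cohort thus lay below the control lines in mRNA and protein. No source states that the lines were grown as replicate cultures. The p-values set the difference between cohorts against the spread between lines within a cohort. With 1 array per line, that spread cannot be split into differences between lines, cultures and arrays, and may be partly technical.

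CDK1 is the kinase that starts mitosis once it is bound by an A or B cyclin. Until then the kinases WEE1 and PKMYT1 hold it off by phosphorylating neighbouring threonine and tyrosine residues in its ATP-binding loop, and CDC25 phosphatases remove those phosphates. PLK1 tips the balance by activating CDC25C and by helping to remove WEE1, and active CDK1 feeds back on the same enzymes. In dividing cells, mRNAs of the A and B cyclins, *Cdk1*, *Cdc25c* and *Plk1* rise in G2 and mitosis, so that these genes are widely used as readouts of proliferation in mammary tumors.

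The cohorts differed over the whole array as follows, with the p under 0.05 that the study used, unadjusted and here from limma, as the threshold. Of 19938 genes, 1517 (7.61%) were lower and 866 (4.34%) were higher in the knockdown lines at that threshold, and 0 passed after Benjamini-Hochberg adjustment over all genes (3 did in an unmoderated equal-variance test, 4 with the lowest 1 in 3 genes by mean left out and 1 in the regression on densitometry). With array medians subtracted 2041 were lower and 509 higher, and after another quantile normalization 1332 were lower and 1300 higher. Without H4, where H3 alone stood for the knockdown lines and was taken to vary like the control lines, 1986 were lower and 4901 higher, and 1266 passed after adjustment. The SD over all probe sets was 2.25 on the H3 array and 2.29 to 2.30 on the other arrays. The epithelial keratin genes *Krt8* and *Krt18* were high in every line, at 11.6 to 12.3 on the log2 scale, while the epithelial genes *Epcam* and *Cdh1* lay below the array median in all 5 lines. Of 6 measured macrophage and leukocyte markers, 5 lay below the array median in every line, *Ptprc* and *Adgre1* among them. Their summed level was 11.1 in both knockdown lines against 10.2 to 10.4 in the control lines on the log2 scale, with *Cd68*, a lysosomal gene, at 10.96 in both H3 and H4 against 9.93 to 10.07 in the control lines. The part of these markers in the results that follow was not tested. Of 7 fibroblast and endothelial markers 4 lay below the array median in every line, and their summed level was 9.57 in H3 and 9.44 in H4 against 9.29 to 9.37 in the control lines.

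Promoter sequences are shown for 4 of the genes because promoters of this class of genes carry a recurrent set of short motifs. A link between the motifs and expression across the lines was not tested. The CHR (cell cycle genes homology region, TTTGAA or TTTAAA) is the contact site of the MuvB complex, the CCAAT box is bound by NF-Y, and TTGGCGC and TTCGCGC are core sequences of E2F sites. Each motif was searched on both strands of a window from 250 bases before to 50 bases after the annotated start site in RefSeq (GRCm38.p6). The TTGGCGC matches on opposite strands can overlap each other, and TTGGCGC read on the reverse strand can share bases with a CCAAT box. Windows were matched for 7 of the 10 genes, and *Ccna2*, *Cdc25c* and *Pkmyt1* were not matched. The windows of *Cdk1* (chr10:69352863-69353162, minus strand), *Ccnb2* (chr9:70421505-70421804, minus strand), *Plk1* (chr7:122159185-122159484, plus strand) and *Cdc25a* (chr9:109875329-109875628, plus strand) are given 5′ to 3′ on the coding strand, with motif matches in capitals.
Cdk1: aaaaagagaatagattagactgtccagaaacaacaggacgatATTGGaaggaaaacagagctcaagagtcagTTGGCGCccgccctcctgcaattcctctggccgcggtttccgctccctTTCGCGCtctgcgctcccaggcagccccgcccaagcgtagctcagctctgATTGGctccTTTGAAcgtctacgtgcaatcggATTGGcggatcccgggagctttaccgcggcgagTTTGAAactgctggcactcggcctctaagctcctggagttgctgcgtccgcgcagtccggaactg
Ccnb2: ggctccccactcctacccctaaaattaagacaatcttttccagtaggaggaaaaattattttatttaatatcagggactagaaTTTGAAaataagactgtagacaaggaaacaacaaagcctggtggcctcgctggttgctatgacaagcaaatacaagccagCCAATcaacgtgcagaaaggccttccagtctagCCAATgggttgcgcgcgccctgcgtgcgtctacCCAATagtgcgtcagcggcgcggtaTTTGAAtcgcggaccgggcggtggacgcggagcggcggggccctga
Plk1: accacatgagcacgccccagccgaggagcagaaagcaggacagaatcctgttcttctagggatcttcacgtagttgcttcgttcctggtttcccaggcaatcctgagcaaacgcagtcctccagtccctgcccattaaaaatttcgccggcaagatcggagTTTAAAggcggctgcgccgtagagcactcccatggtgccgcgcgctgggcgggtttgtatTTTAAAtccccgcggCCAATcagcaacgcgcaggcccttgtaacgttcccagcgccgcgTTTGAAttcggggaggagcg
Cdc25a: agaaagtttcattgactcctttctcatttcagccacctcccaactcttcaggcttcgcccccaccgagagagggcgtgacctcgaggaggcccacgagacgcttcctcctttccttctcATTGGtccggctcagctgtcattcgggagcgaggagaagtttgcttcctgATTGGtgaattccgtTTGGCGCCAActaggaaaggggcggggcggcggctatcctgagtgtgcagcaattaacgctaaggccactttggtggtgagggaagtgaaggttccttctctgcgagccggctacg

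A CCAAT box was found in all 7 windows, against 37.4% of all 32851 windows in the table, and a CHR in 5 of 7, against 27.6%. The 5 with a CHR, those of *Cdk1*, *Ccnb1*, *Ccnb2*, *Ccnf* and *Plk1*, also held a CCAAT box, a combination found in 10.7% of all windows. *Cdk1* held CHR matches starting at -71 and -15 relative to the start site, *Ccnf* at -130 and -14, *Ccnb2* at -167 and 5, and *Plk1* at -89, -29 and 31. An E2F-type match was found in *Cdk1*, *Ccnb1* and *Cdc25a*, against 3.89% of all windows. In *Cdc25a* the match was on both strands at overlapping positions, -66 and -63. The window of *Cdc25b* held a CCAAT box at -28 and neither of the other motifs. A match describes the letters of the window and does not show that a factor was bound.

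**Figure D1:**
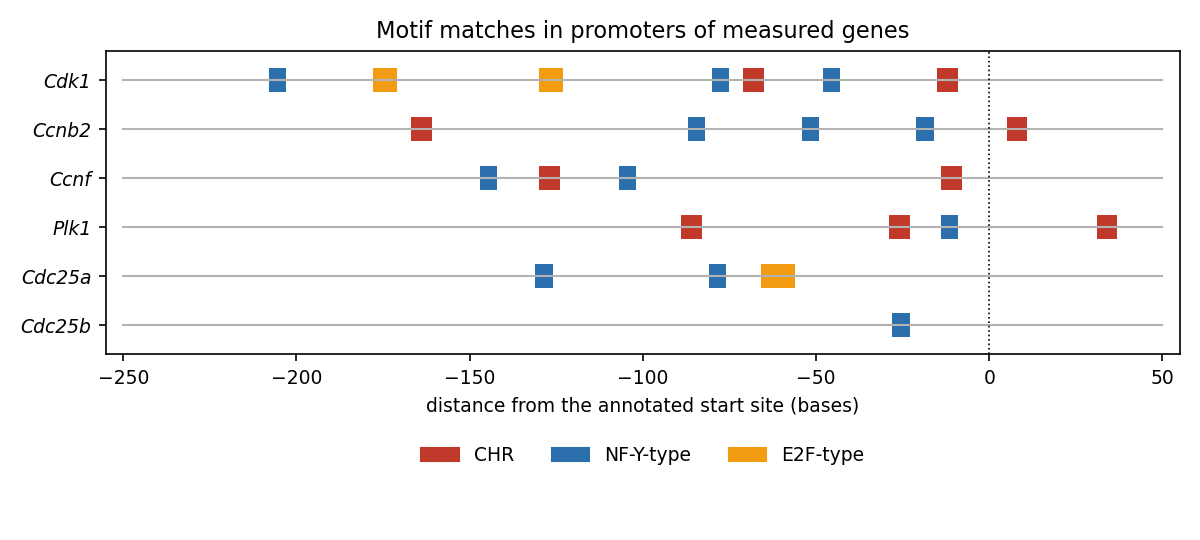
Positions of CHR, NF-Y-type (CCAAT) and E2F-type matches (coloured blocks) in the promoter windows of 6 measured genes, in bases from the annotated start site (horizontal axis). *Cdk1*, *Ccnb2*, *Ccnf* and *Plk1* hold CHR matches, while *Cdc25a* and *Cdc25b* hold none.

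All 9 measured genes were lower in both knockdown lines than in each of the 3 control lines, against 13.5% of all genes with that arrangement. The unadjusted threshold was passed by all 9 in limma, against 7.61% of all genes in that direction, and by 0 of the 9 after adjustment over all genes, where the adjusted p ran from 0.276 to 0.404. The median log2 fold change of the 9 genes was -0.84, against 0.03 over all genes. In lysates of whole cultures, fewer cells in G2 and mitosis and less mRNA per cell cannot be told apart. The 9 genes share the same 5 arrays and are not independent observations. With H5 or with the untransduced line left out, 2 genes passed the unadjusted threshold, *Cdc25a* and *Cdc25c*, which were also the 2 that passed in an unmoderated equal-variance test. Without H4, 4 genes passed, *Cdk1*, *Ccna2*, *Ccnb2* and *Cdc25c*, on the assumption that H3 alone varies like the control lines, and the log2 fold changes ran from -1.07 for *Cdc25c* to -0.21 for *Pkmyt1*. *Ccnb2*, *Plk1* and *Pkmyt1* did not pass without the scrambled line, and *Cdc25a* and *Cdc25b* did not pass without H3.

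**Figure D2:**
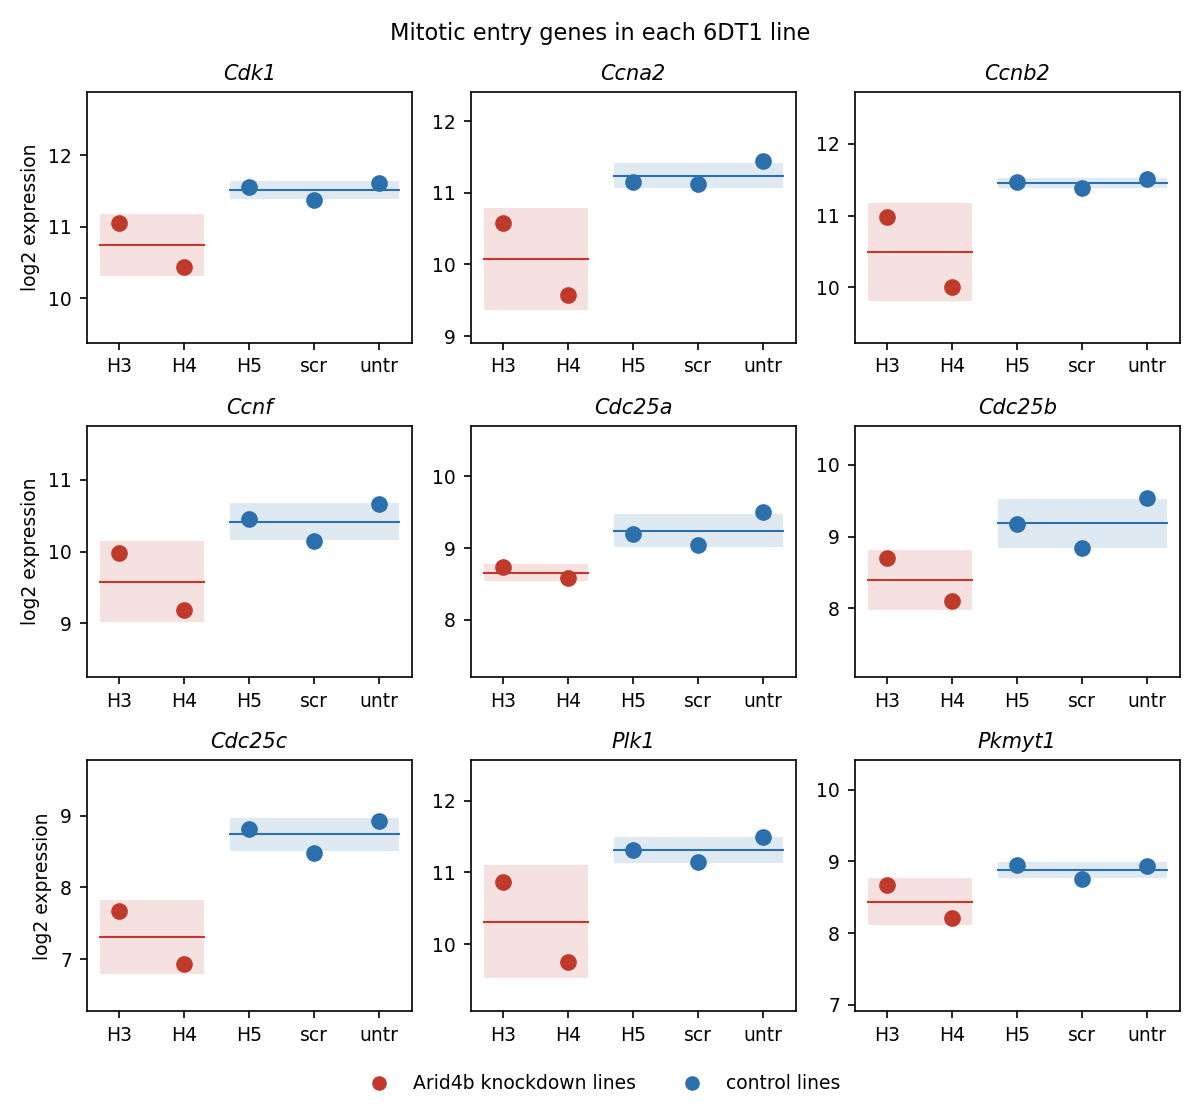
Log2 expression (vertical axes, each spanning the same range) of the 9 measured genes in the 5 lines (scr, scrambled control; untr, untransduced), with 1 point per line. Horizontal lines and shading show the mean ± SD of the knockdown lines (n = 2) and of the control lines (n = 3), and in every panel H4 is the lowest point.

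*Cdk1*, the catalytic subunit itself, was expressed at 11.05 (log2 scale, as for all levels that follow) in H3 and 10.44 in H4, against 11.55 in line H5, 11.37 in the scrambled line and 11.61 in the untransduced line. The knockdown mean was 10.75 ± 0.43 (SD, n = 2) and the control mean 11.51 ± 0.13 (SD, n = 3). The log2 fold change was -0.77 (standard error 0.20, 95% interval -1.31 to -0.23, adjusted p = 0.329 from limma), which left *Cdk1* at 58.8% of the control level. The level was 72.7% of the control mean in H3 and 47.5% in H4, and the gap between H3 and the lowest control line, 0.32 on the log2 scale, was wider than the range of 0.25 among the control lines.

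Among the cyclin genes *Ccna2*, which encodes the cyclin A of dividing somatic cells, changed the most. It was at 10.57 in H3 and 9.57 in H4, against 11.16 in line H5, 11.12 in the scrambled line and 11.44 in the untransduced line, with a log2 fold change of -1.17 ± 0.32 (standard error), at an adjusted p of 0.336 in limma. The level in H4 was 31.5% of the control mean and that in H3 63.0%, and H3 lay 0.55 below the lowest control line on the log2 scale. *Ccnb2*, which encodes a B cyclin found largely at the Golgi apparatus, was at 10.98 in H3 and 10.00 in H4, against 11.47 in line H5, 11.39 in the scrambled line and 11.52 in the untransduced line. Its control lines were the closest together of the 9 genes, with an SD of 0.07 around a mean of 11.46. Both knockdown lines lay outside that spread, at 71.9% and 36.6% of the control mean in H3 and H4. The knockdown lines were themselves 0.97 apart, with an SD of 0.69. The log2 fold change of *Ccnb2* was -0.96 ± 0.30 (standard error, 95% interval -1.75 to -0.17), at an adjusted p of 0.356 in limma.

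*Ccnf* encodes cyclin F, which does not activate a cyclin-dependent kinase but selects substrates for an SCF ubiquitin ligase in G2. It was at 9.98 in H3 and 9.18 in H4, against 10.45 in line H5, 10.14 in the scrambled line and 10.66 in the untransduced line. The groups did not overlap, but H3 lay only 0.17 below the scrambled control, less than the range of 0.52 among the control lines. The log2 fold change was -0.84 ± 0.29 (standard error), at an adjusted p of 0.384 in limma, or 56.0% of the control level.

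The 3 *Cdc25* phosphatase genes were all lower, by unequal amounts. *Cdc25c*, whose product acts on CDK1 with cyclin B at mitotic entry, was at 7.67 in H3 and 6.94 in H4, against 8.81 in line H5, 8.48 in the scrambled line and 8.93 in the untransduced line. It ranked 9th of 19938 genes from the lowest log2 fold change, at -1.44 (standard error 0.26, 95% interval -2.14 to -0.74, adjusted p = 0.276 from limma), and had the widest gap between the groups among the 9 genes, 0.81. *Cdc25b*, which is thought to act earlier, at the centrosome, was at 8.70 in H3 and 8.10 in H4, against 9.17 in line H5, 8.85 in the scrambled line and 9.53 in the untransduced line. Its control lines were the most spread of the 9 genes, with an SD of 0.34 and a range of 0.69. H3 lay 0.15 below the lowest control line, less than that range. The log2 fold change was -0.79 ± 0.28 (standard error), at an adjusted p of 0.394 in limma.

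*Cdc25a*, which acts at the start of S phase as well as at mitotic entry, was at 8.74 in H3 and 8.58 in H4, against 9.19 in line H5, 9.04 in the scrambled line and 9.50 in the untransduced line. H3 and H4 were closer together in *Cdc25a* than in any other of the 9 genes, 0.16 apart on the log2 scale, and lay at 70.5% and 63.0% of the control mean. H3 lay 0.30 below the lowest control line, less than the range of 0.46 among the control lines. The log2 fold change was -0.59 ± 0.15 (standard error), at an adjusted p of 0.325 in limma.

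*Plk1*, the polo-like kinase gene, was at 10.86 in H3 and 9.75 in H4, against 11.31 in line H5, 11.14 in the scrambled line and 11.50 in the untransduced line. H3 and H4 were further apart here than in any other of the 9 genes, by 1.11, with H3 at 73.1% and H4 at 33.8% of the control mean. H3 lay 0.28 below the lowest control line, less than the range of 0.36 among the control lines. The log2 fold change was -1.01 ± 0.36 (standard error), at an adjusted p of 0.393 in limma, and it was -0.45 in H3 and -1.57 in H4 taken alone. *Pkmyt1*, the only gene of the 9 whose product opposes CDK1, was at 8.67 in H3 and 8.20 in H4, against 8.94 in line H5, 8.76 in the scrambled line and 8.94 in the untransduced line. It showed the smallest change of the 9, with a log2 fold change of -0.44 (standard error 0.16, 95% interval -0.86 to -0.02, adjusted p = 0.404 from limma). H3 lay 0.08 below the scrambled control, less than the range of 0.19 among the control lines. After another quantile normalization *Pkmyt1* no longer passed the unadjusted threshold, while the other 8 genes did.

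**Figure D3:**
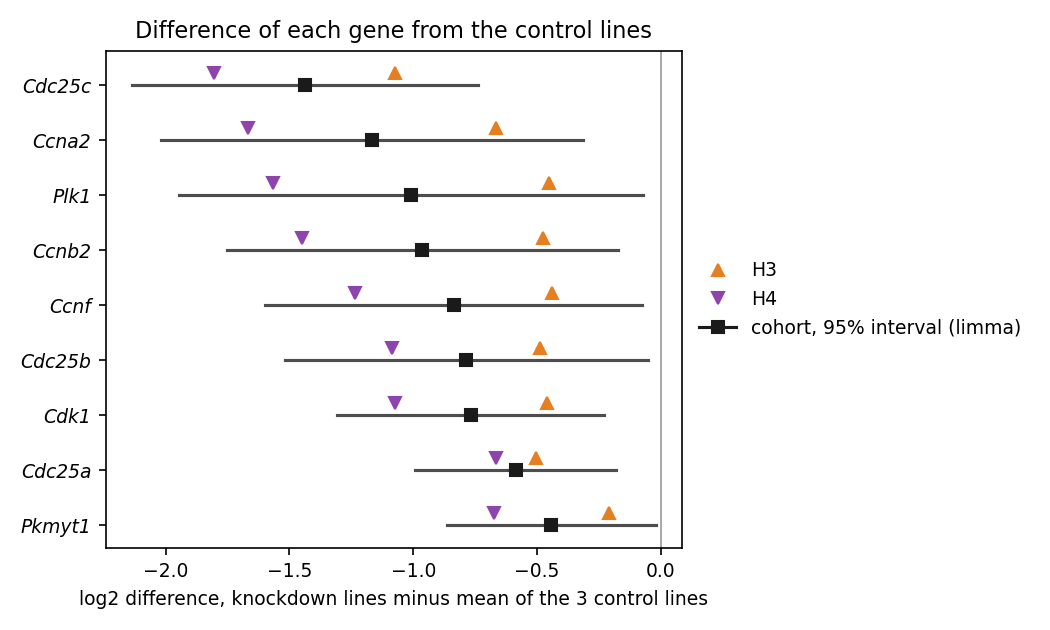
Log2 difference from the mean of the 3 control lines (horizontal axis) for the 9 measured genes (rows), with H3 and H4 as triangles and the limma fold change with its 95% interval as squares and bars. The fold changes run from -1.44 for *Cdc25c* to -0.44 for *Pkmyt1*, and each interval ends below 0.

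Within-array ratios asked whether genes with related roles changed unequally. Of 6 ratios chosen, 4 could be computed, and with 2 lines against 3 a two-sided exact permutation test over the 10 assignments of lines cannot go below 0.2. The log2 ratio of *Cdc25c* over *Cdc25b* stood at -1.03 in H3 and -1.16 in H4, against -0.36 in line H5, -0.36 in the scrambled line and -0.60 in the untransduced line, a difference of -0.65 (exact permutation p = 0.2, 0.267 after Benjamini-Hochberg adjustment over the 4 ratios). *Cdc25c* over *Cdc25a* differed by -0.85 and *Cdk1* over *Pkmyt1* by -0.33, each without overlap between the groups and with the same exact permutation p of 0.2 (0.267 adjusted). For *Plk1* over *Cdk1* the difference was -0.24 (exact permutation p = 0.6, 0.6 adjusted), and H3, at -0.19, lay among the control lines, which ran from -0.25 to -0.11. Without H4 that difference was 0.0085, and that of *Cdc25c* over *Cdc25a* was -0.57. Ratios compare lines only, since levels of different probe sets are not on a common scale.

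The lines followed nearly the same order in every gene. H4 lay below H3 in all 9 genes, against 58.9% of all genes, and the median gap was -0.73, against -0.05 over all genes. The median difference from the control mean over the 9 genes stood at -0.48 in H3 and -1.23 in H4, against 0.01 in line H5, -0.17 in the scrambled line and 0.19 in the untransduced line. The scrambled control was the lowest of the control lines in all 9 genes, against 35.6% of all genes, and untransduced cells were the highest of the 5 lines in 8 of 9, against 19.7%. Those 8 genes had the full order H4, H3, scrambled control, H5 and untransduced from low to high, which 3.39% of all genes had. *Pkmyt1* was the exception, with H5 and untransduced cells at 8.94 each. Untransduced cells were the only line without puromycin selection, and the part of selection in this order was not tested beyond the fit that carries it as a covariate, in which the median log2 fold change of the 9 genes was -0.72, against -0.84 without the covariate, and 2 genes passed the unadjusted threshold. Because the untransduced line alone was unselected, leaving it out is the same comparison, with the same median and the same 2 genes. Differences between H3 and H4 rest on 1 array each and were not tested.

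**Figure D4:**
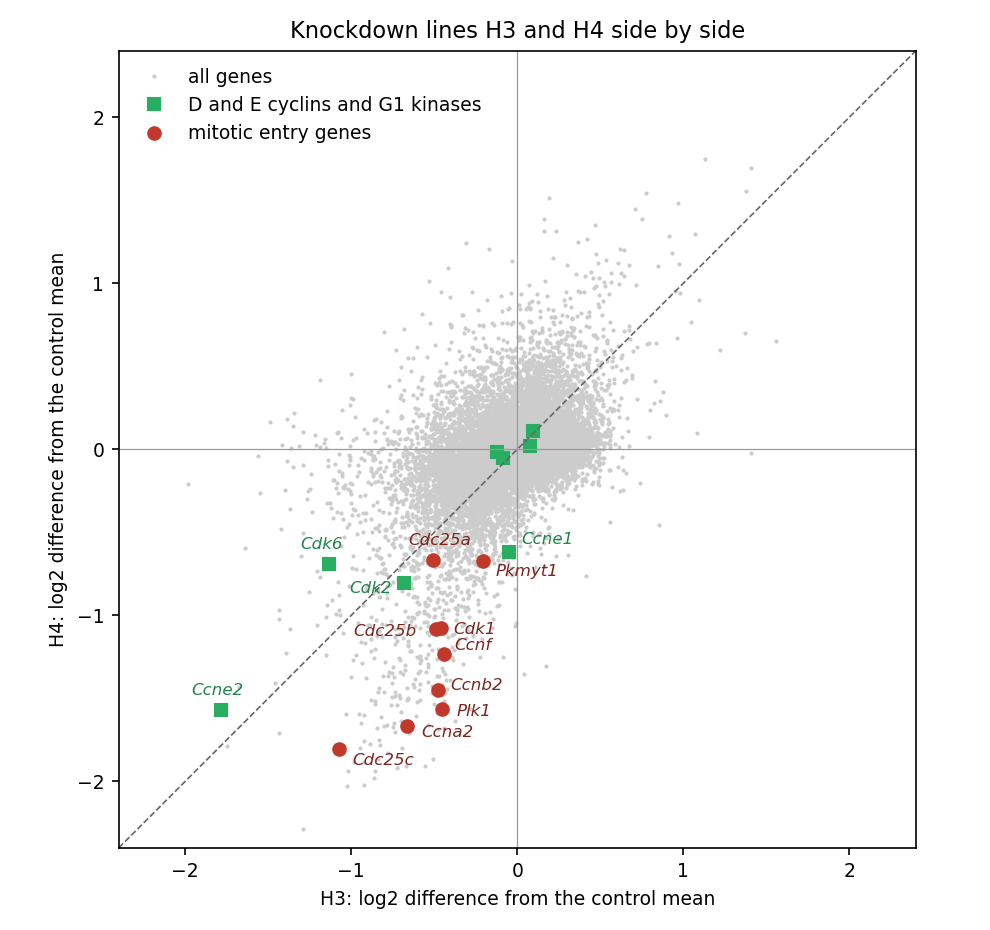
Log2 difference from the mean of the control lines in H3 (horizontal axis) and in H4 (vertical axis) for all 19938 genes (grey), the 9 mitotic entry genes (red) and 8 D and E cyclin and G1 kinase genes (green), with equality as a dashed line. All 9 red points lie below the dashed line, whereas *Ccne2* and *Cdk6* lie above it.

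The rest of the CDK1 control circuit was covered by 36 further genes, of which 35 were measured. At the unadjusted threshold 14 of them were lower and 2 higher (against 7.61% and 4.34% of all genes), 19 did not pass, and 0 passed after adjustment over all genes, with a median log2 fold change of -0.17. Counts of lower genes were 6 without H5, 6 without the untransduced line and 7 in the unmoderated equal-variance test, all among the 14. Without the scrambled control the count was 9, of which 8 were among the 14. *Plk4*, *Chek2*, *Cks1b*, *Bora* and *Fbxo5* were lower in each of the 14 alternatives run.

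Among the inhibitors, 4 of 9 measured genes were lower, against 7.61% of all genes. *Wee1*, whose product phosphorylates CDK1 as PKMYT1 does, was at 9.60 in H3 and 8.94 in H4, against 9.80 in line H5, 9.86 in the scrambled line and 10.09 in the untransduced line, a log2 fold change of -0.65 that was -0.32 without H4 and missed the threshold without H4, H5, the scrambled line or the untransduced line. The checkpoint kinase genes *Chek1* and *Chek2*, whose products restrain the CDC25 phosphatases, had log2 fold changes of -1.27 and -1.19. *Ywhab*, which encodes an adaptor that binds phosphorylated CDC25, had one of -0.13, at 91.3% of the control level. *Ywhab* missed the threshold when any of the control lines, H5, the scrambled line or the untransduced line, was left out. It also missed it in limma with trend and robust options, with array weights and with the lowest 1 in 3 genes left out. Its log2 difference from the control mean was -0.15 in H3 and -0.11 in H4 taken alone. *Chek1* missed the threshold without H4. The other 5 measured inhibitor genes did not pass. *Gadd45a*, a stress-induced gene, had a log2 fold change of 0.37 that did not pass the threshold, with the untransduced line at 7.27 apart from the other 4 lines at 7.86 to 8.12. *Cdkn1a* was not analysed here, because its probe set also carried another symbol.

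Of 7 genes that help to activate CDK1 or PLK1, 4 were lower, against 7.61% of all genes. *Aurka*, the Aurora kinase gene whose product activates PLK1, had a log2 fold change of -0.98, and *Bora*, its cofactor in that step, one of -0.96. *Aurka* was at 9.50 in H3 and 8.42 in H4, against 9.94 in line H5, 9.77 in the scrambled line and 10.13 in the untransduced line. Its log2 fold change was -0.44 without H4, and it missed the threshold without H4, H5, the scrambled line or the untransduced line. *Bora* was at 8.50 in H3 and 8.25 in H4, against 9.39 in line H5, 9.15 in the scrambled line and 9.48 in the untransduced line. The groups were 0.64 apart, more than the range of 0.33 among the control lines. *Cks1b* and *Cks2*, which encode small subunits that bind CDK1, had log2 fold changes of -0.69 and -0.66, and *Cks2* missed the threshold without H4 (-0.38), H5 or the untransduced line. The genes of the CDK-activating kinase, *Cdk7*, *Ccnh* and *Mnat1*, did not pass, with log2 fold changes of -0.05, -0.19 and 0.17.

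In the Greatwall branch, which keeps the phosphatase PP2A from reversing CDK1 phosphorylation, 1 of 7 genes was lower, against 7.61% of all genes. This was *Mastl*, the Greatwall kinase gene, at 8.83 in H3 and 7.75 in H4, against 9.37 in line H5, 9.33 in the scrambled line and 9.11 in the untransduced line, a log2 fold change of -0.98. Without H4 it was -0.44, and *Mastl* missed the threshold without H4, H5, the scrambled line or the untransduced line. The genes of its substrates and of PP2A had log2 fold changes between -0.33 for *Arpp19* and -0.04 for *Ppp2r1a*. Of 7 genes that act in the turnover of the cyclins, CDC25A and WEE1, 4 were lower, against 7.61% of all genes. They were *Fbxo5*, an inhibitor of the anaphase-promoting complex, at -1.29, *Cdc20*, the mitotic activator of that complex, at -0.93, and the ubiquitin-conjugating enzyme genes *Ube2c* and *Ube2s* at -0.64 and -0.39. Without H4 the changes were -0.48 for *Cdc20*, -0.32 for *Ube2c* and -0.23 for *Ube2s*, none of which passed. All 3 genes also missed the threshold without H5 or the untransduced line, and *Ube2c* and *Ube2s* without the scrambled line. *Ube2s* failed it in 8 of 14 alternatives.

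Paralogs of the members did not all move the same way. Of the polo-like kinase genes, *Plk4*, which controls centriole duplication, had a log2 fold change of -1.10, whereas *Plk2* and *Plk3*, which respond to stress and growth signals, were the 2 higher genes of the circuit. *Plk2* was at 8.80 in H3 and 9.13 in H4, against 8.51 in line H5, 8.51 in the scrambled line and 8.61 in the untransduced line, a log2 fold change of 0.42 (adjusted p = 0.33 from limma), and it missed the threshold without H5 or the scrambled line. *Plk3* had a log2 fold change of 0.29 (adjusted p = 0.383 from limma) and no longer passed the unadjusted threshold in 7 of 14 alternatives, among them the fits without H3, without H4, without H5 and without the untransduced line. *Ccna1* and *Ccnb3*, cyclin genes expressed mainly in the germ line, lay below the array median in every line, with *Ccna1* at the same value of 5.89 on all 5 arrays.

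**Figure D5:**
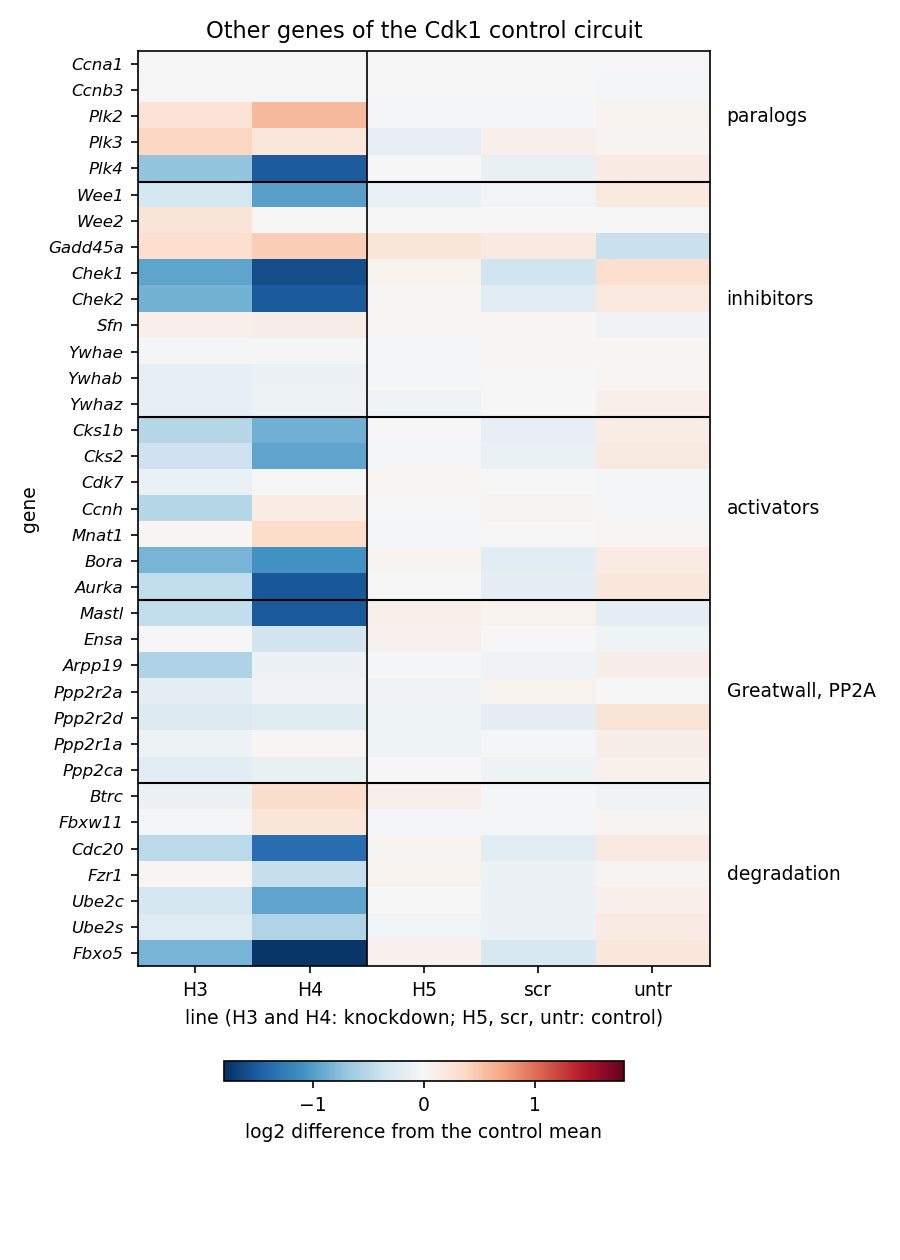
Log2 difference from the mean of the 3 control lines (colour, blue lower and red higher) of the 35 measured genes of the CDK1 control circuit (rows, grouped by role) in each line (columns; scr, scrambled control; untr, untransduced). *Chek1*, *Chek2*, *Aurka*, *Mastl*, *Fbxo5* and *Plk4* are darkest blue in H4, and *Plk2* is red in both knockdown lines.

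Cyclins and kinases of G1 gave a mixed picture beside the mitotic ones. Of 8 D and E cyclin and G1 kinase genes, 3 were lower, against 7.61% of all genes, and 5 did not pass, with a median log2 fold change of -0.20. *Ccne2*, a cyclin E gene, had a log2 fold change of -1.68, *Cdk6* one of -0.91 and *Cdk2*, the kinase that partners cyclins E and A, one of -0.74, while the D cyclin genes lay between -0.07 and 0.10. In *Ccne2* H3 was the lower knockdown line, at 6.55 against 6.77 in H4, and likewise in *Cdk6*, at 9.44 against 9.88. H4 lay below H3 in 3 of these 8 genes, against 9 of 9 mitotic entry genes and 58.9% of all genes. The difference between the gene groups was not tested.

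Among 10 genes of the pocket proteins, the MuvB core, B-MYB and FOXM1, which control transcription through E2F and CHR sites, 5 were lower, against 7.61% of all genes, and 5 did not pass. *Foxm1*, whose product activates G2 and mitosis genes, was at 8.50 in H3 and 7.39 in H4, against 9.09 in line H5, 8.72 in the scrambled line and 9.14 in the untransduced line, a log2 fold change of -1.04. Without H4 it was -0.48, and without H4, H5, the scrambled line or the untransduced line it missed the threshold. *Mybl2*, the B-MYB gene, had a log2 fold change of -0.97 with the same order of lines as most of the mitotic entry genes, and missed the threshold without H4 (-0.60), H5 or the untransduced line. *Lin9*, a MuvB core gene, and *Rbl1*, the p107 pocket protein gene, had log2 fold changes of -0.98 and -0.78, with H3 and H4 close together at 6.64 and 6.48 for *Lin9* and at 8.48 and 8.56 for *Rbl1*. The fifth, *Lin54*, another MuvB core gene, had one of -0.69, and it was -0.42 in H3 and -0.97 in H4 taken alone. Its H3 value lay 0.12 below the lowest control line, less than the range of 0.55 among the control lines. *Lin54* was not followed through the alternatives.

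The genes whose profile over the 5 lines lay nearest to the median profile of the 9 genes were found by the root mean square difference of log2 values from the control mean. They were *Atad2* (0.04), *Mis18a* (0.04), *Asf1b* (0.06), *Rrm1* (0.06), *Mcm2* (0.06) and *Hrob* (0.06). Among the 9 genes themselves *Ccnf* (0.05) and *Cdk1* (0.08) were nearest to their common median and *Cdc25c* (0.37) and *Pkmyt1* (0.29) farthest from it. *Mis18a* was at 7.28 in H3 and 6.63 in H4, against 7.86 in line H5, 7.61 in the scrambled line and 7.96 in the untransduced line. Its lines thus stood in the order shared by 8 of the 9 genes. Those of *Atad2*, *Asf1b*, *Rrm1*, *Mcm2* and *Hrob* stood in that order too, which the choice by likeness favours.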

How the data were processed

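RNA of 5 6DT1 lines was hybridised by the authors to Affymetrix Mouse Gene 1.0 ST arrays, and the table they deposited holds normalized expression on the log2 scale. Partek and RMA are named in the processing notes of the submitters, without versions. The table held 35556 probe sets, of which 21789 had 1 gene symbol in the platform annotation, 1621 had several and 12146 were unnamed here. For each of the resulting 19938 genes the probe set of highest average signal was kept. Each of the 9 measured genes had 1 probe set.

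Cohorts were taken from the ARID4B level in the labels. The comparison used lmFit and eBayes of limma 3.58.1 (R 4.3.3; 1.58 prior and 3 residual degrees of freedom), with p-values adjusted by Benjamini-Hochberg across all genes. The fit was tested on simulated data with independent noise of equal spread in both cohorts. That setting differs from these data, as in *Ccnb2*, with an SD of 0.69 in the knockdown and 0.07 in the control lines. The simulation therefore does not vouch for the p-values given here. Counts use an unadjusted p under 0.05. The study names ANOVA without its model. The genes and lists were chosen with earlier results of these data known. The text names all 10 genes, *Arid4b*, up to 4 genes per list by size of change and the 6 nearest profiles. *Krt8*, *Krt18*, *Cdk7*, *Ccnh*, *Mnat1* and other list members outside that rule were named after their values were seen. Precision is limited by the number of arrays. Figures were drawn with matplotlib 3.10.9.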

Additional observations from a re-analysis of the deposited data

How the results depend on the processing

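All 9 genes kept a negative log2 fold change in each of 14 alternatives, and *Cdc25c* passed the unadjusted threshold in all 14. In all 9 genes both knockdown lines lay below each control line. This fixed the sign in the fits that left out a line, weighted the arrays or carried the puromycin covariate. The fit with array weights leaned most on H5, at a weight of 6.86. The weights were 1.40 for the scrambled line, 0.97 for the untransduced line and 0.33 for each of H3 and H4. The unmoderated test, the trend and robust options, averaged probe sets and leaving out dim genes did not alter the fold changes. The fit with the puromycin covariate and that without the untransduced line are the same comparison, counted separately among the 14. The count of 9 lower genes was 9 with trend and robust options, with array medians subtracted, without the dimmest genes, with probe sets averaged and in the regression on densitometry, 8 after another quantile normalization, 7 with array weights, and 2 in the unmoderated equal-variance test and with puromycin selection as a covariate. It ran from 2 to 7 when 1 line was left out, and the median of the 9 genes from -1.23 without H3 to -0.48 without H4. The count of lower genes in the rest of the circuit was 7 in the unmoderated test, 6 with the puromycin covariate, and 6 to 15 when 1 line was left out. Over all genes 2383 passed the unadjusted threshold, against 1422 in the unmoderated test, 1287 with array weights, 1519 with the puromycin covariate, and 1184 to 6887 when 1 line was left out. The 6887 genes without H4, where H3 alone stood for the knockdown lines, rest on the assumption that H3 varies like the control lines. The ratio of *Plk1* over *Cdk1* ran from -0.49 to 0.0085, with 0.0085 without H4. The causes were not tested, although leaving out a line leaves fewer samples. No paired analysis was possible because the labels give the lines no shared replicate numbers.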
